A study of Mus musculus with 4 samples.

Results

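The 8 genes described here mark macrophages, leukocytes in general or red blood cells, and were followed through the RNA of sorted mouse male germ cells. They were taken by gene name from the deposited expression tables: *Csf1r*, *C1qa*, *Lyz2* and *Cd68* for macrophages, *Ptprc* for all leukocytes, *Cd74* for antigen presentation, and *Hba-a1* and *Hbb-bs* for red blood cells. These are 8 of the 24411 genes in each table, and all 8 passed the filter of a mean of at least 1 TPM (transcript abundance scaled for length and library total) that left 14512 genes for testing. The rule that takes them from the tables uses gene names and no measured value, although the names were listed with earlier results of these data known.

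The study asked how loss of ZFP541, a zinc finger protein of meiotic spermatocytes, changes the transcripts of these cells at postnatal day 18. There were 4 libraries, 2 from *Zfp541*+/- males (controls 1 and 2) and 2 labelled *Zfp541* KO, each made from GFP-positive cells of a single testis. All 4 carried *Rec8*-*3xFLAG-HA-p2A-GFP*, a knock-in allele that couples GFP to REC8, a cohesin subunit of meiosis, so the sort was meant to take spermatocytes in meiotic prophase. The control arm was not uniform, since 1 control testis was heterozygous and the other homozygous for the knock-in, and the sources do not say which of controls 1 and 2 is which. Both testes labelled KO were homozygous for it, and whether they came from one mouse or from different mice is not given. The labels give the strain as C57BL/6 and CBA mixed, whereas the methods describe C57BL/6 animals. The *Zfp541* deletion was made by Cas9 in fertilized eggs, and most experiments of the study used 1 of the established lines.

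Macrophages live in the testis between the seminiferous tubules, close to the Leydig cells that make testosterone, and along the tubule wall. They depend on signalling through CSF1R, whose ligands are CSF1 and IL34, and they make large amounts of lysozyme, complement C1q and lysosomal proteins. Red blood cells have lost their nucleus but keep some globin mRNA when young, so that globin transcripts enter RNA of any tissue that holds blood. The members are textbook markers of these blood-derived cells and not of germ cells.

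The labels and the sort were checked first. *Zfp541* was listed at 112 TPM in control 1 and 72.2 TPM in control 2, against 136 TPM in the library labelled KO 1 and 151 TPM in that labelled KO 2. The level listed for the targeted gene was therefore not lower in either library labelled KO (log2 fold change 0.67, SE 0.28, limma, Benjamini-Hochberg adjusted p = 0.371). Which part of the partly deleted gene this level counts is not given. For protein rather than RNA, the paper reported that ZFP541 was absent from knockout testis by immunoblot. The RNA level alone does not bear out the label, so these are called the libraries labelled KO throughout. *Rec8* stood at 7.05 TPM in control 1, against 27.9 TPM in control 2, 27.7 TPM in the library labelled KO 1 and 19.4 TPM in that labelled KO 2. The 14 spermatocyte marker genes examined summed to between 5034 and 7554 TPM, led by *Sycp3*, *Mael*, *Hormad1* and *Sycp1*, and the *Sycp3* transcript, for an axial element protein of meiotic chromosomes, was at 1108 TPM or more in every library.

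*Lyz2*, the lysozyme of macrophages and other myeloid cells (GRCm38, chr10:117277541-117282272), was listed at 1152 TPM in control 1, 10.99 TPM in control 2, 912 TPM in the library labelled KO 1 and 646 TPM in that labelled KO 2. Control 2 stood apart from the other 3 libraries, and the values of the libraries labelled KO lay between the controls. The first of these was 83.0 times and the second 58.8 times control 2, while control 1 was 105 times control 2. *Cd68*, a lysosomal glycoprotein of macrophages (chr11:69664213-69666170), followed the same order at 139, 2.44, 118 and 93.9 TPM. *C1qa*, the first chain of the complement recognition protein C1q (chr4:136895916-136898844), was at 477, 6.39, 401 and 328 TPM. In bulk RNA, fewer cells of a type and less RNA in each cell cannot be told apart.

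Promoters of *Lyz2* and *Cd68* are shown because these members were high together in 3 libraries and low together in the fourth. The 250 bases before the RefSeq start site (GRCm38.p6) run 5′ to 3′ in the direction of transcription, both from the minus strand, at chr10:117282273-117282522 for *Lyz2* and chr11:69666171-69666420 for *Cd68*. Capitals mark matches on either strand to GAGGAA and AGGAAGT, short sequences of the kind bound by PU.1 and other ETS factors, which were searched as fixed letters and can overlap each other.
Lyz2: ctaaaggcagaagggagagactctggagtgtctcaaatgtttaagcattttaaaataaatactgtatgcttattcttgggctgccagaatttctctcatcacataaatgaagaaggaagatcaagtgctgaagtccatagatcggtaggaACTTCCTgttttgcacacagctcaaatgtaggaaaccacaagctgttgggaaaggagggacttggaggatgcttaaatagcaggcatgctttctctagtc
Cd68: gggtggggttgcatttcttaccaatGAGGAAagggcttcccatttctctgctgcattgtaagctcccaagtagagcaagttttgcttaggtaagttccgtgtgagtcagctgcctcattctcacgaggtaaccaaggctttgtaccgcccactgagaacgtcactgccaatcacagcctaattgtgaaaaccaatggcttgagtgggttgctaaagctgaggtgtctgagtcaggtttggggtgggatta
*Lyz2* held AGGAAGT on the opposite strand, with its first printed base at -100 from the start site, and *Cd68* held GAGGAA at -225. *Ptprc* held GAGGAA at -158 and AGGAAGT at -113 and, on the opposite strand, at -58 from the first of the 2 start sites listed for it. Its windows (chr1:138175306-138175555 and chr1:138175127-138175376, minus strand) lie inside the span given for the gene below. That span ends at 138175756, so the 5′ end of the gene lies further upstream. The windows of its 2 start sites overlap, and the match at -58 is the same site as that at -237 from the second. Of 32851 windows of this length in the promoter table, 23.3% held GAGGAA and 7.69% held AGGAAGT, so a match is a description and not a binding site.

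*Csf1r*, the receptor on which macrophage survival depends (chr18:61105572-61131139), was at 209 TPM in control 1, 1.12 TPM in control 2, 196 TPM in the library labelled KO 1 and 140 TPM in that labelled KO 2. The groups overlapped, with the 2 controls at the 2 ends of the range. The mean was 105 ± 147 TPM in controls and 168 ± 39.5 TPM in libraries labelled KO (SD, n = 2 each), so the SD of the controls exceeded their mean. *Ptprc*, which encodes the leukocyte phosphatase CD45 (chr1:138062859-138175756), stood at 9.77, 0.04, 10.5 and 8.57 TPM in the same order, so it was near 0 in control 2 alone. The 3 other libraries lay between 8.57 and 10.5 TPM, and within these 3 the library labelled KO 1 was the highest.

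*Cd74*, the invariant chain that accompanies MHC class II proteins (chr18:60803849-60812652), was at 5.66 TPM in control 1 and 0.33 TPM in control 2. It was at 10.3 TPM in the library labelled KO 1 and 7.16 TPM in that labelled KO 2. *Cd74* was the member for which both libraries labelled KO lay above both controls, the only 1 of 8, where 38.6% of all genes tested did so. No member lay below both controls in both libraries labelled KO, against 12.1% of all genes tested. The library labelled KO 1 was 1.82 times and that labelled KO 2 1.27 times control 1 for *Cd74*, against 0.936 and 0.669 times for *Csf1r*, and no error can be given for such ratios of single libraries.

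**Figure D1:**
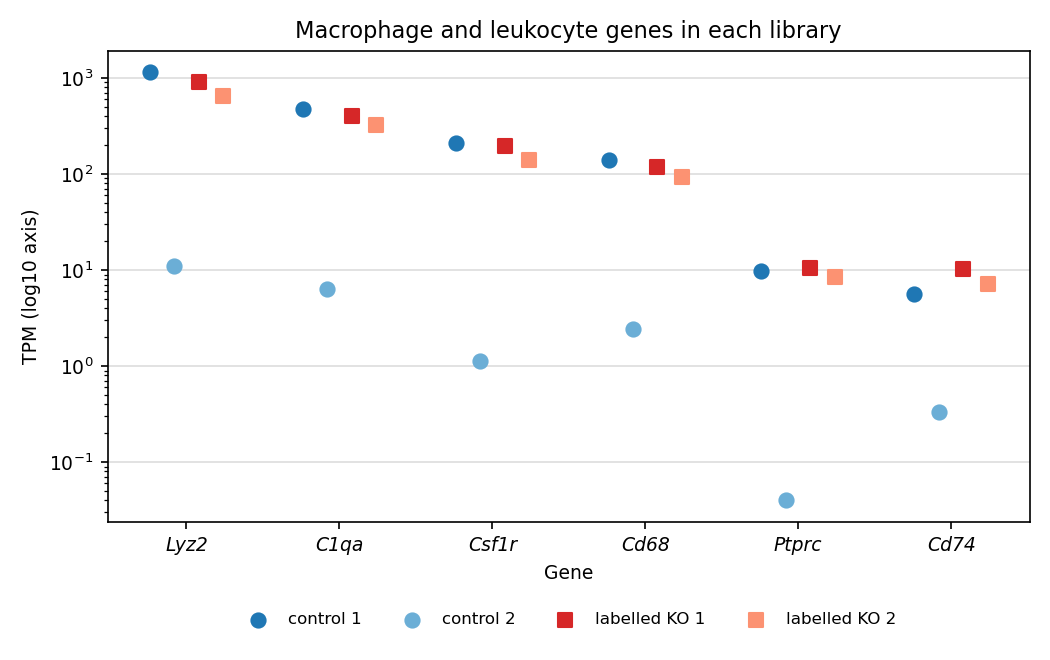
The level of each immune member in TPM, on a log10 axis, is plotted for the 4 libraries, 1 point each (circles for controls, squares for libraries labelled KO). Control 2 is the lowest point for all 6 genes, at between 0.04 and 10.99 TPM, while the other 3 libraries lie close together.

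The 6 members other than the globins were lowest in control 2, where 53.4% of all genes tested were. For the same 6, each other library was at least 10 times control 2, against 4.31% of all genes tested. The ratios of control 1 to control 2 ran from 17.2 for *Cd74* to 244 for *Ptprc*. The immune members therefore differed more between the controls than between control 1 and the libraries labelled KO, for which the ratios ran from 0.561 for *Lyz2* to 1.82 for *Cd74*. Summed over the 6, the level was 1992 TPM in control 1, 21.3 TPM in control 2, 1648 TPM in the library labelled KO 1 and 1223 TPM in that labelled KO 2.

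The proportions among the macrophage members were close in 3 libraries. *Lyz2* was 5.52 times *Csf1r* in control 1, 4.67 times in the library labelled KO 1 and 4.63 times in that labelled KO 2, and *C1qa* was 2.28, 2.05 and 2.34 times *Csf1r*. In control 2 the same ratios were higher, at 9.81 for *Lyz2* and 5.71 for *C1qa*. There *Csf1r* itself was at 1.12 TPM, so ratios to it are uncertain. Not every member showed this rise. *Ptprc* was 0.0357 times *Csf1r* in control 2, against 0.0468 in control 1 and 0.0539 and 0.0614 in the libraries labelled KO 1 and KO 2. *Cd68* was 0.667, 0.602 and 0.672 times *Csf1r* in the 3 higher libraries and 2.18 times in control 2. These are ratios of TPM values within a library, with no replicate error.

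The other genes of the macrophage list followed the members. All 28 macrophage genes, the 4 members included, were lowest in control 2, against 53.4% of all genes tested. For 25 of them, all but *Cd14*, *Irf8* and *Fcgr1*, each other library was at least 10 times control 2, against 4.31% of all genes tested. The summed level of the 28 was 4353 TPM in control 1, 62.7 TPM in control 2, 3730 TPM in the library labelled KO 1 and 2788 TPM in that labelled KO 2. The remaining C1q chains were among the most abundant, *C1qb* at 487, 7.10, 463 and 323 TPM and *C1qc* at 476, 4.79, 423 and 315 TPM. *Tyrobp*, an adaptor for myeloid receptors, was at 201.1, 2.70, 185 and 144 TPM. *Ctss*, a lysosomal protease, was at 241 TPM in both control 1 and the library labelled KO 1, and at 2.22 and 168 TPM in the other two. The defining markers of the type were thus present at high levels in 3 of 4 libraries of a sort meant for germ cells.

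Set against control 1, the median of the 28 was 0.907 in the library labelled KO 1 and 0.673 in that labelled KO 2. A few genes departed from this, and they are named after their values were seen. *Cx3cr1*, the fractalkine receptor, was at 37.9 TPM in control 1 and 0.13 TPM in control 2, but at 8.58 and 9.04 TPM in the libraries labelled KO 1 and KO 2. *Irf8*, a transcription factor of monocytes and dendritic cells, was at 28.9, 2.09, 8.46 and 9.03 TPM. *Trem2*, a receptor for lipids, was at 55.0, 0.61, 25.0 and 28.8 TPM. Among the 28, the ratio to control 1 was lowest for *Cx3cr1*, at 0.227 and 0.239, and highest for *Cd14*, at 1.51 and 1.27. *Cd14*, the lipopolysaccharide co-receptor, was at 7.89, 1.52, 11.9 and 10.03 TPM. It was the only gene of the 28 with both libraries labelled KO above both controls, where 38.6% of all genes tested did so.

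For the receptor's own pathway, 7 of the 8 listed ligands and partners of CSF1R passed the filter. All 7 were lowest in control 2, against 53.4% of all genes tested. *Tyrobp* and *Spi1* are also in the macrophage list, so the 2 lists are not separate. For 4 of the 7 (*Csf1*, *Tyrobp*, *Spi1* and *Runx1*), each other library was at least 10 times control 2, against 4.31% of all genes tested. The ligand *Csf1* was at 28.8 TPM in control 1, 0.23 TPM in control 2, 3.49 TPM in the library labelled KO 1 and 4.24 TPM in that labelled KO 2. The ligand thus separated control 1 from the libraries labelled KO, at 0.121 of control 1 in the first, where its receptor did not. *Il34* was at 2.02, 0.26, 0.66 and 0.75 TPM and missed the filter. *Spi1*, which encodes the macrophage regulator PU.1, was at 42.6, 0.34, 38.7 and 32.5 TPM, the order of *Csf1r*. *Grb2*, an adaptor used by most cells, was at 53.9, 52.8, 71.2 and 63.0 TPM, and *Cbl*, a ubiquitin ligase, was at 41.9, 13.0, 49.5 and 59.2 TPM.

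Around *Ptprc*, 11 of 12 general leukocyte genes were lowest in control 2, where 53.4% of all genes tested were. *Laptm5*, a lysosomal protein of blood cells, was at 143, 1.06, 124 and 93.4 TPM, and *Itgb2*, the shared chain of the leukocyte integrins, at 40.4, 0.17, 36.4 and 35.0 TPM. *Arhgdib*, abundant in blood cells, was at 90.6, 1.73, 72.3 and 49.3 TPM, and *Lcp1*, an actin-bundling protein, at 51.5, 1.21, 34.5 and 23.3 TPM. The exception was *Cytip*, at 2.25 TPM in control 1 and 7.56 TPM in control 2. Around *Cd74*, 3 of the 6 class II genes tested were lowest in control 2 (*Cd74*, *H2-Aa* and *H2-DMb1*), close to the 53.4% of all genes tested. *H2-Ab1*, a class II beta chain, was at 15.3 TPM in control 1 and between 31.0 and 32.9 TPM in the other 3 libraries, whereas *H2-Aa*, its alpha partner, was at 3.87 TPM, listed at 0, then 4.19 and 2.88 TPM. Of the chains that load peptide, *H2-DMa* was at 6.53, 10.9, 15.2 and 16.4 TPM and *H2-DMb1* at 8.93, 0.86, 5.62 and 5.32 TPM. *H2-Ab1* and *H2-DMa* were lowest in control 1 and so did not follow *Cd74*.

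Between the genotypes as labelled, no member passed an adjusted p of 0.05 with all 4 libraries, and 0% of all genes tested did. The test was limma on log2(TPM + 1) with Benjamini-Hochberg adjustment over all genes, a scale that understates changes of low genes, and none of the 8 had an unadjusted p under 0.05, against 1549 genes that were higher and 542 lower in libraries labelled KO. The log2 fold change (labelled KO over control) was 2.98 for *Csf1r* (SE 2.28) and 2.71 for *Lyz2* (SE 2.26), with limma adjusted p = 0.566 and 0.598. It was 2.61 for *C1qa*, 2.27 for *Cd68*, 1.65 for *Ptprc* and 1.69 for *Cd74* (SE 0.89, limma adjusted p = 0.436). The lowest adjusted p over the 8 was that of *Cd74*. These p-values measure only the spread between these samples, and an exact permutation test of 2 against 2 libraries could not go below 0.33. The paper, also with 2 samples per genotype, reported sets of genes higher and lower in the knockout at a false discovery rate of 0.05. It names RSEM for its differential expression analysis, so its calls and the 0% here come from different methods.

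The sign of the comparison rested on control 2. Without control 2, all macrophage and leukocyte members but *Cd74* had a log2 fold change below 0, from -0.035 for *Ptprc* to -0.59 for *Lyz2* (*Csf1r* -0.34, *Cd68* -0.40, *C1qa* -0.39), and *Cd74* was at 0.53. None of the 8 passed (limma adjusted p from 0.145 to 0.915), while 12.9% of all genes tested were lower at that threshold. Without control 1, *Csf1r* was 6.29 higher on the log2 scale, *Lyz2* 6.00, *C1qa* 5.62, *Cd68* 4.95, *Ptprc* 3.34 and *Cd74* 2.85. These 6 passed (lowest limma adjusted p = 0.00917) where 38.7% of all genes tested were higher, and the lone control was assumed to vary like the other group. Each of these results therefore turned on which control was kept.

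**Figure D2:**
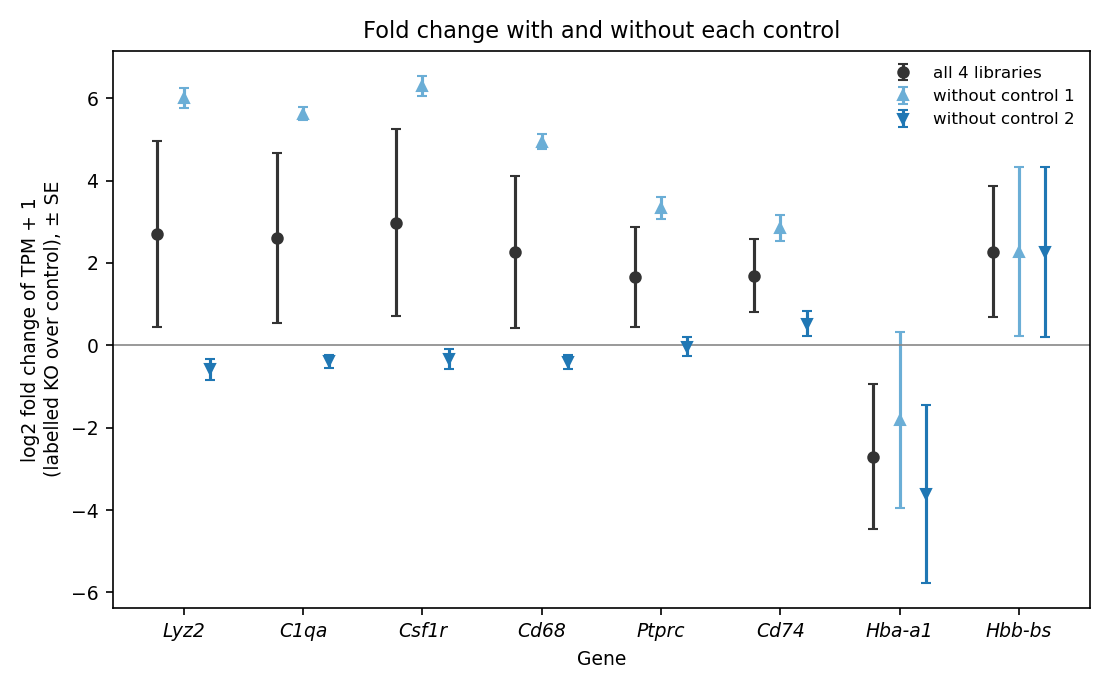
The log2 fold change of TPM + 1 (libraries labelled KO over controls) is plotted for each member with its SE, fitted with all 4 libraries, without control 1 and without control 2. For *Csf1r* the value is 2.98 with all libraries, 6.29 without control 1 and -0.34 without control 2, and the 2 globin genes keep their side of 0.

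The globin members did not follow the macrophage members. *Hba-a1*, an adult alpha-globin gene (chr11:32283672-32284486), was at 62.1 TPM in control 1, 17.1 TPM in control 2 and 25.8 TPM in the library labelled KO 1, and was listed at 0 in that labelled KO 2. *Hbb-bs*, an adult beta-globin gene (chr7:103826523-103827928), was listed at 0 in 3 libraries and at 22.4 TPM in the library labelled KO 2. Each globin member was thus listed at 0 in at least 1 library, and no fold is given against these values. The fitted log2 fold change was -2.71 for *Hba-a1* (SE 1.76, limma adjusted p = 0.516) and 2.27 for *Hbb-bs* (SE 1.60, limma adjusted p = 0.541), so neither passed.

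The zeros fell on genes with a near copy. The neighbouring *Hba-a2* was listed at 0 in the 3 libraries that had *Hba-a1*, and at 244 TPM in the library labelled KO 2, where *Hba-a1* was listed at 0. The coding sequences of *Hba-a1* and *Hba-a2* (429 bases each) differ at 1 base, C381T, counted from 1 at the first base of the coding sequence, and those of *Hbb-bs* and *Hbb-bt* (444 bases each) at C417T. The 4 stretches around these bases are shown because reads that miss the base could come from either copy. They are read from GRCm38 with GENCODE M21, in the direction of transcription, with the differing base in capitals: chr11:32284313-32284373 for *Hba-a1* and chr11:32297130-32297190 for *Hba-a2* on the plus strand, and chr7:103826665-103826722 for *Hbb-bs* and chr7:103812656-103812713 for *Hbb-bt* on the minus strand.
Hba-a1: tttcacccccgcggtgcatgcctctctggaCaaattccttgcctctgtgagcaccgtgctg
Hba-a2: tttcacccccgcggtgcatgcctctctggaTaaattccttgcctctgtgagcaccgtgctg
Hbb-bs: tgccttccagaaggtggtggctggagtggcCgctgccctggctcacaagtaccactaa
Hbb-bt: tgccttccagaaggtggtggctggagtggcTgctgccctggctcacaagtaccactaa
Of the 75-base windows (the read length) along the coding sequence, 86.2% were shared by the alpha pair and 92.4% by the beta pair. Over the whole transcript, 62.2% of the windows of *Hba-a1* were also in *Hba-a2*, and 64.3% of those of *Hbb-bs* were in *Hbb-bt*. A level of *Hba-a1* or *Hbb-bs* alone is therefore uncertain, and the part of read assignment in the zeros was not tested.

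The promoters of the 2 globin members are shown beside those of the myeloid pair. They span chr11:32283422-32283671 on the plus strand for *Hba-a1* and chr7:103827929-103828178 on the minus strand for *Hbb-bs* (RefSeq, GRCm38.p6), again the 250 bases before the start site, with CACCC and CCAAT in capitals. These boxes are known from many globin promoters and were searched on both strands.
Hba-a1: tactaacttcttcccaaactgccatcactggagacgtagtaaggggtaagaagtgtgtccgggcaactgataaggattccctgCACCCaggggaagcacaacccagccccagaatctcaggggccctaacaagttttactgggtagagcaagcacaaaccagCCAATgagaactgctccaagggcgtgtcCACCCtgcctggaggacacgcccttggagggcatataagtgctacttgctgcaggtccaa
Hbb-bs: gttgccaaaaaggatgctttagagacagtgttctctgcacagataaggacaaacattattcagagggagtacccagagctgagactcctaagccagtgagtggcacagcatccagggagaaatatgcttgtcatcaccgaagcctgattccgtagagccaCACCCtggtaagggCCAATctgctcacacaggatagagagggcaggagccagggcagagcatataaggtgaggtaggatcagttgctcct
*Hba-a1* held CACCC at -167 and -60 from the start site and CCAAT at -88, and *Hbb-bs* held CACCC at -90 and CCAAT at -76. These boxes did not set the globin promoters apart, since the *Cd68* promoter held CACCC on the opposite strand at -250 and -11 and CCAAT at -230, -84 and -60, which are not capitalized in its sequence. Of all windows in the table, 52% held CACCC and 33.8% held CCAAT.

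Summed over copies, the adult globins gave a level in every library. Alpha-globin (*Hba-a1* and *Hba-a2*) was at 62.1 TPM in control 1, 17.1 TPM in control 2, 25.8 TPM in the library labelled KO 1 and 244 TPM in that labelled KO 2. Beta-globin (*Hbb-bs*, *Hbb-bt*, *Hbb-b1* and *Hbb-b2*) was at 45.4, 11.8, 18.1 and 135 TPM. Both chains were thus lowest in control 2 and highest in the library labelled KO 2, and the ratio of alpha to beta was 1.37, 1.46, 1.42 and 1.81. The adult sum in the library labelled KO 2 was 13.1 times control 2 and 3.52 times control 1, while that labelled KO 1 was at 0.408 of control 1. The groups overlapped, and the log2 fold change of summed alpha-globin was 1.26 (SE 1.27, limma adjusted p = 0.657) and that of summed beta-globin 1.07 (SE 1.18, limma adjusted p = 0.690).

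The entry named *Hbb-b1* held most of the beta-globin signal, at 30.5, 8.43, 14.2 and 93.6 TPM, or 67.3%, 71.7%, 78.2% and 69.6% of the beta sum. Its sequence was not compared with that of *Hbb-bs*, so how far these entries share reads is not known. *Hbb-bt* and *Hbb-b2* had the same value in each of the 4 libraries, from 1.66 TPM in control 2 to 9.31 TPM in the library labelled KO 2. These names therefore cannot be read as separate genes here, and both enter the beta sum. The embryonic genes *Hba-x*, *Hbb-bh1* and *Hbb-bh2* were listed at 0 in all libraries, and *Hbb-y* was at 0.40 TPM in the library labelled KO 1 and listed at 0 elsewhere. Apart from that value, the globin signal was of adult type in all 4 libraries.

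**Figure D3:**
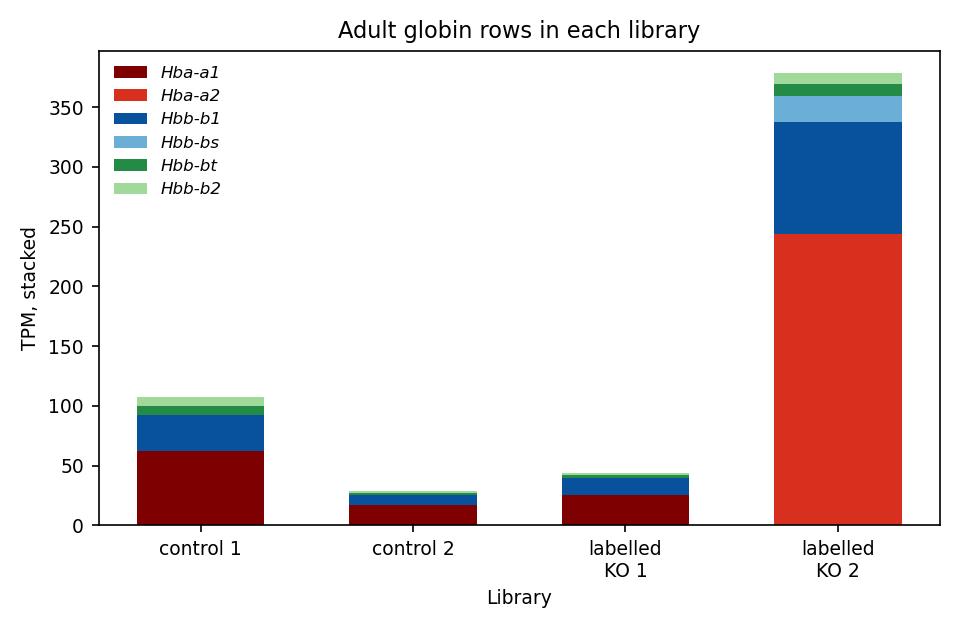
Stacked bars give the TPM of the 6 adult globin entries in each library. The library labelled KO 2 stands at 378 TPM, above control 1 at 107 TPM, and is the one where the alpha share lies under *Hba-a2* and where *Hbb-bs* is above 0.

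The other red cell genes did not share the order of the globins. Of 24 listed, 22 were in the tables and 14 passed the filter. Of the 14, 5 were lowest in control 2 (*Alas2*, *Epor*, *Sptb*, *Fech* and *Slc25a37*), where 53.4% of all genes tested were. *Alas2*, the erythroid enzyme that starts haem synthesis, was at 2.02, 1.55, 1.96 and 4.88 TPM, highest in the library labelled KO 2 as globin was. *Slc4a1*, the anion exchanger of the red cell membrane, was listed at 0 in both controls, at 0.05 TPM in the library labelled KO 1 and at 0.08 TPM in that labelled KO 2. It was picked after its values were seen, as a defining red cell gene. *Tfrc*, the transferrin receptor of dividing cells in general, was at 38.1, 38.2, 77.3 and 80.2 TPM. It was the only 1 of the 14 with both libraries labelled KO above both controls, where 38.6% of all genes tested did so. Another 3 of the 14, *Klf1*, *Bpgm* and *Car2*, lay below both controls in both, against 12.1% of all genes tested. After *Tfrc*, the most abundant were *Fech* and *Bpgm* (means of 53.9 and 50.7 TPM) and *Gata1* and *Ube2l6* (31.8 and 13.6 TPM). These did not separate control 2 from the rest.

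Genes that handle haem and iron, many of them active in macrophages, were mostly lowest in control 2, as *Csf1r* was. Of 12 tested, 11 were lowest in control 2, all but *Tfrc*, against 53.4% of all genes tested. *Slc40a1*, the iron exporter, was at 96.4, 2.29, 45.9 and 53.0 TPM, and *Cd163*, the receptor for haemoglobin bound to haptoglobin, at 18.6, 0.19, 22.9 and 18.1 TPM. The ferritin chains, which most cells make, varied less, with *Fth1* at 1405, 1188, 1336 and 1211 TPM and *Ftl1* at 1670, 617, 1273 and 1151 TPM. *Trf*, the iron carrier transferrin, was at 127, 6.07, 86.7 and 86.6 TPM, and *Hmox1*, which breaks haem down, was at 98.1, 33.5, 68.7 and 45.96 TPM.

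Markers of neighbouring cell types moved partly with the members. The 7 Leydig cell genes summed to 3640 TPM in control 1, 19.4 TPM in control 2, 400 TPM in the library labelled KO 1 and 619 TPM in that labelled KO 2. *Insl3*, a Leydig cell hormone, was at 1925, 4.99, 186 and 366 TPM, and the steroid enzyme genes *Hsd3b6*, *Hsd3b1* and *Cyp11a1* had means of 229, 151 and 67.8 TPM. All 7 were lowest in control 2 and highest in control 1, so the Leydig list was low where *Csf1r* was, but also separated control 1 from the libraries labelled KO. Of all genes tested, 53.4% were lowest in control 2. The 10 Sertoli cell genes summed to 884, 755, 1170 and 853 TPM. They were led by *Clu* with a mean of 652 TPM, *Cldn11* (72.2 TPM), *Tjp1* (54.7 TPM) and *Rhox5* (52.8 TPM). For none of the 10 was each other library at least 10 times control 2, near the share of 4.31% over all genes tested. That rule was met by 5 of the 7 Leydig genes, *Cyp11a1*, *Hsd3b1*, *Hsd3b6*, *Insl3* and *Lhcgr*, the last listed at 0 in control 2. Lymphocyte genes were sparse, with 5 of 16 listed at 0 in every library, namely *Cd3g*, *Cd8a*, *Nkg7*, *Gzma* and *Ncr1*. *Cd4* was at 11.2, 0.35, 16.3 and 11.3 TPM, while *Cd3e*, a T cell receptor subunit, was at 6.54, 13.1, 15.8 and 11.3 TPM, and *Lck* had a mean of 1.78 TPM. Of the neutrophil and mast cell genes 1 of 14 passed the filter (*Csf3r*, at 3.14, 0.36, 3.43 and 3.00 TPM), and *S100a8* and *S100a9* were listed at 0 throughout. The part of these cell types in the members' levels was not tested.

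**Figure D4:**
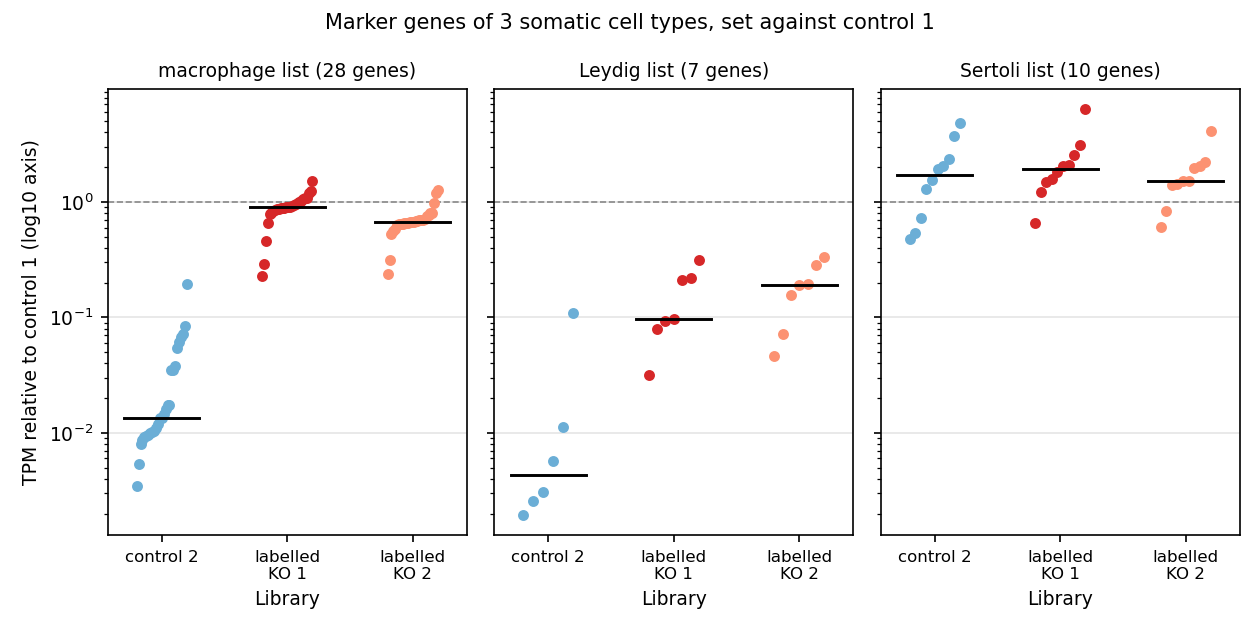
Each point is 1 gene's TPM divided by its TPM in control 1 (log10 axis), for the macrophage, Leydig and Sertoli lists, and the line is the median of the points drawn. *Ms4a7* and *Lhcgr* are listed at 0 in control 2 and are not drawn there. Macrophage genes have a median of 0.907 in the library labelled KO 1 and 0.673 in that labelled KO 2, while Leydig genes lie below 1 in all 3 libraries.

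The genes whose profile lay nearest to *Csf1r* over the 4 libraries, by Euclidean distance between centred log2(TPM + 1) values, were *Stab1* (distance 0.248), *C1qc* (0.263), *Ctss* (0.306), *F13a1* (0.315) and *Cbr2* (0.325). *Stab1*, a scavenger receptor, was at 118, 0.46, 109 and 89.6 TPM. Those nearest to *Hbb-bs* were not red cell genes but small RNA genes, *Snora3*, *Mir721*, *Mir425*, *Mir449b* and *Mir34b*, each listed at 0 in the 3 libraries where *Hbb-bs* was. *Snora3* was at 23.4 TPM and *Mir34b* at 36.6 TPM in the library labelled KO 2, so that a pattern of 3 zeros and 1 value is shared with genes of other kinds.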

How the data were processed

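GFP-positive cells of 4 testes were sequenced as single-end reads. Per the methods and labels, the authors used Trim Galore 0.5.0 and cutadapt 1.16 for trimming, aligned reads to mm10 with STAR 2.6.0a and estimated levels with RSEM 1.3.1, and they deposited TPM per gene. TPM keeps no depth, so sequencing depth is unknown and counting intervals are not given. Between 6518 and 7646 genes were listed at 0 per library. Control 2 had the most, at 31.3% of its genes, against 26.9% in control 1. The libraries labelled KO 1 and KO 2 had 27.6% and 26.7%.

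Values were read in Python 3.11.15 (pandas 2.3.3) and fitted in R 4.3.3 with limma 3.58.1 on log2(TPM + 1), allowing a mean-variance trend, over the 14512 genes averaging at least 1 TPM, with Benjamini-Hochberg adjustment. The procedure was tested on simulated data. Same-numbered libraries did not deviate together (correlation across genes -0.16), so no block was used. There were 15 gene lists with 188 genes, of which 3 (*Ahsp*, *Epb42* and *Ly6g*) are not analysed here. The members and lists were chosen with earlier results of these data known, and the motifs after the promoters were read. Named genes were the members, all globins, the 4 most abundant other genes of each list with more than 1 tested, genes behind counts of 5 or fewer, *Zfp541* and *Rec8*, and the 5 genes nearest to *Csf1r* or *Hbb-bs*. *Slc40a1*, *Cd163*, *Il34*, *Csf1*, *Ube2l6* and *Ppbp* were added for their roles after their values were seen, and some list genes are not reported here. Promoters came from RefSeq (GRCm38.p6, 5 of 8 members) and globin coding sequences from GENCODE M21. Alternatives numbered 13 planned and 2 added after the data were seen.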

Additional observations from a re-analysis of the deposited data

How the results depend on the processing

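Depth is unknown and each group holds 2 libraries, so small differences cannot be resolved. Of 82 member fold changes refitted with all libraries kept (other pseudocounts, filters, scalings, blocks), 81 kept their side of 0 and of the threshold. The exception was *Hba-a1*, which became 1.26 with globin copies summed, since its copy *Hba-a2* is then included. With groups of equal size, the filters, the fit without a mean-variance trend and the blocks could not change a fold change. In those refits only the side of the threshold could move. With the replicate block the members' limma adjusted p ran from 0.629 to 0.642, and no gene passed. A crossed replicate block, chosen after seeing the data like the summed copies, gave 7 genes higher and 80 lower, and dropping the filter gave 1 and 1. Median-ratio scaling moved the median of all genes from 0.28 to -0.0044. It also changed the background count of genes with both libraries labelled KO above both controls, from 5599 to 3355 of 14512. The count below both controls went from 1757 to 3232. For the members these counts stayed at 1 and 0.

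Leaving out 1 library at a time gave log2 fold changes from -5.08 to -0.34 for *Hba-a1*, 0 to 4.55 for *Hbb-bs*, 0.53 to 2.85 for *Cd74*, -0.59 to 6.00 for *Lyz2*, -0.34 to 6.29 for *Csf1r*, -0.035 to 3.34 for *Ptprc*, -0.40 to 4.95 for *Cd68* and -0.39 to 5.62 for *C1qa*. Genes higher ran from 0 to 5610 and lower from 0 to 1875, and members above both controls from 1 to 6 and below from 0 to 5. List medians ran from -0.33 to 4.47 (macrophage), -0.29 to 3.55 (leukocyte), 0.21 to 1.15 (class II), -0.30 to 1.98 (CSF1R partners), -0.26 to 1.79 (globins), -0.092 to 0.17 (red cell), -0.49 to 1.45 (haem and iron), 0.071 to 0.58 (lymphocyte), 0.024 to 1.63 (neutrophil), 0.40 to 1.33 (platelet), -0.12 to 0.21 (endothelial), -2.88 to 3.45 (Leydig), 0.22 to 0.74 (Sertoli), -0.018 to 0.25 (peritubular) and 0.44 to 0.71 (meiotic).

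With all libraries, the red cell median (0.16) was -0.13 after median-ratio scaling and -0.073 after quantile normalization. The platelet median (1.35) was 1.67 and 0.75 with pseudocounts of 0.1 and 5, 0.16 with no filter, 1.66 at 5 TPM, 1.09 after median-ratio scaling and 1.08 after quantile normalization. Median-ratio scaling gave 0.12 for Sertoli genes (0.43) and 0.38 for meiotic genes (0.70). The cause of these shifts was not tested.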

Other observations

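Platelet genes were carried by 1 transcript. *Pf4*, which encodes platelet factor 4, was at 291 TPM in control 1, 9.22 TPM in control 2, 218 TPM in the library labelled KO 1 and 135 TPM in that labelled KO 2, the order of *Csf1r*. The platelet gene *Ppbp* was listed at 0 in the first 3 of these libraries and at 0.18 TPM in the last, and *Gp9* likewise with 0.24 TPM. *Gp1ba* and *Itga2b*, 2 platelet receptor genes, had means of 4.54 and 2.15 TPM, and *Gp1bb* a mean of 0.958 TPM.

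The endothelial sum was highest in control 2. The 11 genes listed summed to 18.0 TPM in control 1, 34.1 TPM in control 2, 18.4 TPM in the library labelled KO 1 and 15.6 TPM in that labelled KO 2. *Egfl7*, a secreted vessel factor, gave most of the sum in control 2, at 29.96 TPM against 4.64 TPM in control 1, while *Cdh5*, the cadherin of endothelial junctions, was at 7.94 TPM in control 1 and 0.51 TPM in control 2. *Plvap* and *Pecam1* had means of 1.71 and 0.913 TPM. The 7 peritubular myoid genes summed to between 56.4 and 67.6 TPM (*Myl9*, *Tagln*, *Acta2* and *Des* with means of 43.5, 9.31, 7.24 and 1.28 TPM), with no library apart from the others.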
